A study of Arabidopsis thaliana with 6 samples.

Results

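The LRR-I receptor kinases are plant cell-surface proteins with an extracellular malectin-like region, a few leucine-rich repeats, a single membrane span and a cytoplasmic kinase domain. The members described here were the 40 Arabidopsis thaliana loci of a fixed list, of which 31 were measured by a probe set that names a single gene. Of the other 9, AT2G14440 and AT2G14510 shared 1 probe set, and 7 are not analysed here because no single-gene probe set was named for them: IOS1 (AT1G51800), AT1G51870, RHS6 (AT1G51880), FRK1 (AT2G19190), MEE39 (AT3G46330), RHS16 (AT4G29180) and AT5G16900. Each of the 31 had 1 probe set, and none of these had a suffix that marks probes shared between transcripts. The listed loci include runs of neighbouring genes, and the results are given by these clusters: AT1G518 (9 of 12 listed loci measured), AT2G19 (2 of 3), AT2G28 (4 of 4), AT3G46 (4 of 5), AT5G59 (3 of 3) and loci elsewhere (9 of 13).

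As background, receptor kinases of this kind perceive signals outside the cell and pass them on by phosphorylation inside it. FRK1 is widely used as a marker of the response to bacterial flagellin, IOS1 takes part in immune signalling at the membrane, and RHS6 and RHS16 were named for expression in root hairs. Many LRR-I genes lie in tandem arrays, in which neighbouring copies can be expressed in different organs or conditions.

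The genotypes compared were Col-0 wild type (WT) and the ka120 mutant, with 3 samples of each and 1 array per sample. KA120 (AT3G08960) encodes a nuclear transport receptor of the importin-beta family. The sources used here do not give the mutant allele, no treatment was applied to either group, and both were grown in soil at 22 degrees C with 12 h of light and 12 h of dark. The sampled material is described as mature leaf after 4 weeks of growth in the sample records and as whole rosettes at 3 weeks in the design text. The 3 replicates are called biological in the design text, and their number limits the precision of each value.

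The values are log2 levels, with array medians between 4.63 and 4.79. The KA120 probe set itself read 3.65, 4.12 and 4.17 in ka120 and 4.55, 4.34 and 4.42 in WT. Its difference was -0.45 on the log2 scale (limma adjusted p = 0.0222), and its mean level lay at percentile 43.6. The sources used here do not place its probes relative to the mutation. Of 10 mature leaf markers 5 were measured, all at or above percentile 96.3 of all probe sets in WT. Their mean level was 10.92 to 10.96 in ka120 and 11.48 to 11.66 in WT, and 4 of the 5 fell, beside 16.5% of all probe sets called lower. LHCB4.3 gave -1.54, LHCB4.2 -0.68 and SBPASE -0.62 on the log2 scale, and none of these 3 calls was lost in the alternatives. RCA gave -0.09 and did not pass. The call of PRK, at -0.30, was lost under quantile normalization, both control-based scalings and without ka120 replicate 1, ka120 replicate 2 or WT replicate 2. Of 8 root markers 3 were measured, with a mean level of 4.97 to 5.09 in ka120 and 4.71 to 4.95 in WT. The root-enriched beta-glucosidase PYK10 rose by 0.98 on the log2 scale, while the root hair expansins EXPA7 and EXPA18 gave differences of -0.01 and -0.31 and did not pass. The PYK10 call was lost without ka120 replicate 3 (0.82, limma adjusted p = 0.054). Of 5 senescence markers SAG29 was measured and fell by 0.71 on the log2 scale (-0.28 and not called with an offset by control level removed). Of 4 guard cell markers 2 were measured and not called, and the 6 flower markers are not analysed here. In whole tissue, a change in the share of cells of a type and a change in RNA per cell cannot be told apart, and the part of these shifts in the results below was not tested.

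Most LRR-I members were dim on both genotypes' arrays, and the difference between ka120 and WT lay in a few of them. Of the 31 measured members 6 rose and 1 fell in ka120 (limma, Benjamini-Hochberg adjusted p under 0.05 over all 22746 probe sets). That is 22.6% of the members, against 35.9% of all probe sets and 32.9% of the 13286 named genes, and the gap between these shares was not tested. By direction, 19.4% of probe sets were called higher and 16.5% lower. The median difference over the members was -0.01 on the log2 scale, against -0.02 over all probe sets. A log2 difference of at least 1 was reached by 4 members, AT5G59670, AT1G51860, AT1G51890 and AT3G46370, and by 6.47% of all probe sets.

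The share of members called has to be read with the low levels, and it depended on the scaling. With an offset by control level removed, 90.3% of the members and 74.1% of all probe sets were called. By their mean over the 6 arrays, 25 of the 31 members lay below percentile 40 of all probe sets and 19 below percentile 20. The median percentile of the members was 10.6. Of the 6 at or above percentile 40, 4 were the members with a difference of at least 1, and each of these lay below percentile 40 in the genotype where it was lower, at 26.3 for AT1G51860, 37.9 for AT1G51890 and 38.7 for AT5G59670 in WT and at 34.0 for AT3G46370 in ka120. Their place above percentile 40 thus came from the genotype where they were higher, and no count of calls is read from this split. The deposited table carries no detection call, so dim levels were not shown to exceed background, and a fall from such a level could hardly be seen. Differences are therefore given on the log2 scale and not as folds.

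**Figure D1:**
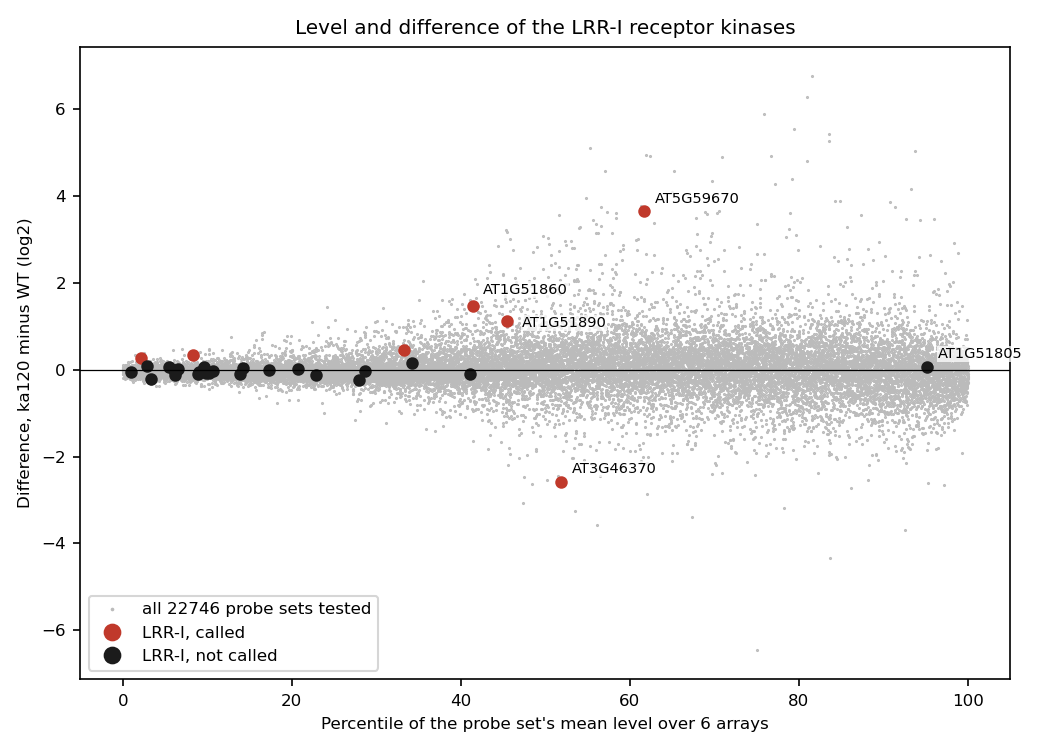
Each grey point is 1 of 22746 probe sets, placed by the percentile of its mean level over 6 arrays (horizontal axis) and its difference, ka120 minus WT, on the log2 scale (vertical axis). The 31 LRR-I members are drawn in red where called and in black where not: 25 lie below percentile 40. The 4 with a difference of at least 1 lie between percentiles 41.4 and 61.7, each raised there by the genotype with the higher level.

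The AT5G59 cluster held the largest rise of the family. AT5G59670, an LRR-I kinase gene, reached 7.48, 7.42 and 7.54 in the ka120 samples, and 4.17, 3.78 and 3.54 in the WT samples. All 3 ka120 values lay far above all 3 WT values, and the ka120 arrays spread less (SD 0.06) than the WT arrays (SD 0.32). The log2 difference was 3.65 (SE 0.14, 95% interval 3.34 to 3.96, limma adjusted p = 2.39e-08). Its mean moved from percentile 38.7 in WT, where it was not shown to exceed background, to 84.5 in ka120, so the difference is that of the signal.

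The other measured LRR-I genes of the AT5G59 cluster were not called. AT5G59650 read 3.59, 3.62 and 3.90 in ka120 and 3.39, 3.65 and 3.57 in WT, with overlapping groups and a difference of 0.16 (95% interval -0.08 to 0.41). It passed as higher after centring on the hybridization controls (0.39, limma adjusted p = 0.0193) and with the offset by level (0.60, limma adjusted p = 0.000286). AT5G59680 read 3.88, 4.07 and 4.00 in ka120 and 4.60, 3.83 and 3.82 in WT. Here WT replicate 1 stood above the other 5 arrays, and the difference was -0.10 with a wide interval (-0.50 to 0.30). The rise of AT5G59670 exceeded the differences of AT5G59650 and AT5G59680 by 3.48 and 3.75 on the log2 scale. For both pairs the exact two-sided permutation test over arrays gave p = 0.1, the smallest that 3 against 3 arrays allow. Each pair set a called gene against an uncalled one, so this outcome was largely fixed by the choice of genes. The same holds for the pairs in the clusters below.

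The AT1G518 cluster, the longest run of listed loci, held the other 5 rises. That is 55.6% of its 9 measured members, beside 19.4% of all probe sets called higher. The calls of AT1G51820 and AT1G51850, both very dim, were lost under some alternatives. AT1G51860 read 4.67, 4.92 and 4.78 in ka120 and 3.61, 3.17 and 3.18 in WT. The groups were well apart, and WT replicate 1 was the highest WT array. The difference was 1.47 (SE 0.13, limma adjusted p = 7.71e-06), and the mean moved from percentile 26.3 to percentile 50.3.

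AT1G51890 gave 5.02, 5.01 and 4.71 in ka120 and 4.06, 3.47 and 3.84 in WT. Again every ka120 array was above every WT array, by a smaller gap. The difference was 1.12 (SE 0.15, limma adjusted p = 0.000136), from percentile 37.9 to 51.8.

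The 3 remaining rises in this cluster were small and lay at the dim end of the array. AT1G51790 read 3.72, 3.93 and 3.77 in ka120 and 3.51, 3.32 and 3.22 in WT, a difference of 0.46 (SE 0.11, limma adjusted p = 0.0057). AT1G51850 read 2.90, 3.07 and 3.02 against 2.59, 2.67 and 2.71, a difference of 0.34 (SE 0.09, limma adjusted p = 0.0121). AT1G51820 read 2.74, 2.61 and 2.87 against 2.39, 2.55 and 2.45, a difference of 0.28 (SE 0.10, limma adjusted p = 0.0489). In each of these genes every ka120 array was above every WT array, which was also so for 23.8% of all probe sets. The WT mean of AT1G51820 was at percentile 0.374 and that of AT1G51850 at percentile 3.07, and in ka120 they reached percentiles 6.23 and 15.8. The AT1G51820 call was lost after leaving out any array except ka120 replicate 2, at differences between 0.21 and 0.32 and limma adjusted p between 0.0539 and 0.188. After centring each array on its median, AT1G51820 gave 0.15 and AT1G51850 0.22, with limma adjusted p of 0.219 and 0.0772.

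AT1G51805, in the same cluster, was measured well above the dim range and was not called. It read 9.06, 9.06 and 9.02 in ka120 and 8.63, 9.10 and 9.19 in WT, near percentile 95. The ka120 values fell inside the WT range, which WT replicate 1 widened downwards. The difference was 0.07 with a 95% interval from -0.23 to 0.37, so a change as large as that of AT1G51890 lay outside the interval. The rises of AT1G51860 and AT1G51890 exceeded the difference of AT1G51805 by 1.40 and 1.05. AT1G51810, AT1G51830 and AT1G51910 were dim and not called, at -0.13, -0.07 and -0.12. AT1G51810 passed as lower after median centring (-0.25, limma adjusted p = 0.0407) but as higher with the offset by level (0.31, limma adjusted p = 0.034). Its difference was 0.10 and not called after centring on the hybridization controls, so its direction depended on the scaling. Over the 4 uncalled members of the cluster the excess was 1.40 to 1.60 for AT1G51860 and 1.05 to 1.25 for AT1G51890, each pair again at the smallest exact permutation p of 0.1.

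The AT3G46 cluster held the single fall. AT3G46370 read 3.39, 3.62 and 3.78 in ka120 and 5.97, 6.002 and 6.56 in WT. Every ka120 array was more than 2 log2 units below every WT array, and WT replicate 3 was the highest. The difference was -2.58 (SE 0.16, 95% interval -2.93 to -2.23, limma adjusted p = 6.09e-07). Its mean moved from percentile 69.2 in WT to percentile 34.0 in ka120, where it was not shown to exceed background, so this too is a difference of the signal.

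The other measured genes of the AT3G46 cluster were dim in both genotypes. AT3G46340, AT3G46350 and AT3G46400 gave 0.02, 0.02 and -0.05, with 95% intervals between -0.29 and 0.25. The fall of AT3G46370 exceeded their differences by -2.60 to -2.53, at the smallest exact permutation p of 0.1 for each of the 3 pairs. Over the AT5G59, AT1G518 and AT3G46 clusters, 13 such pairs of a called gene with a difference of at least 1 and an uncalled gene were compared. All 13 gave an exact permutation p = 0.1, also after Benjamini-Hochberg adjustment over them, so this design cannot place any pair under 0.05. The called genes were taken by their differences and the others for not being called. These pairs therefore only describe the size of the contrast, and their p-values support nothing.

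**Figure D2:**
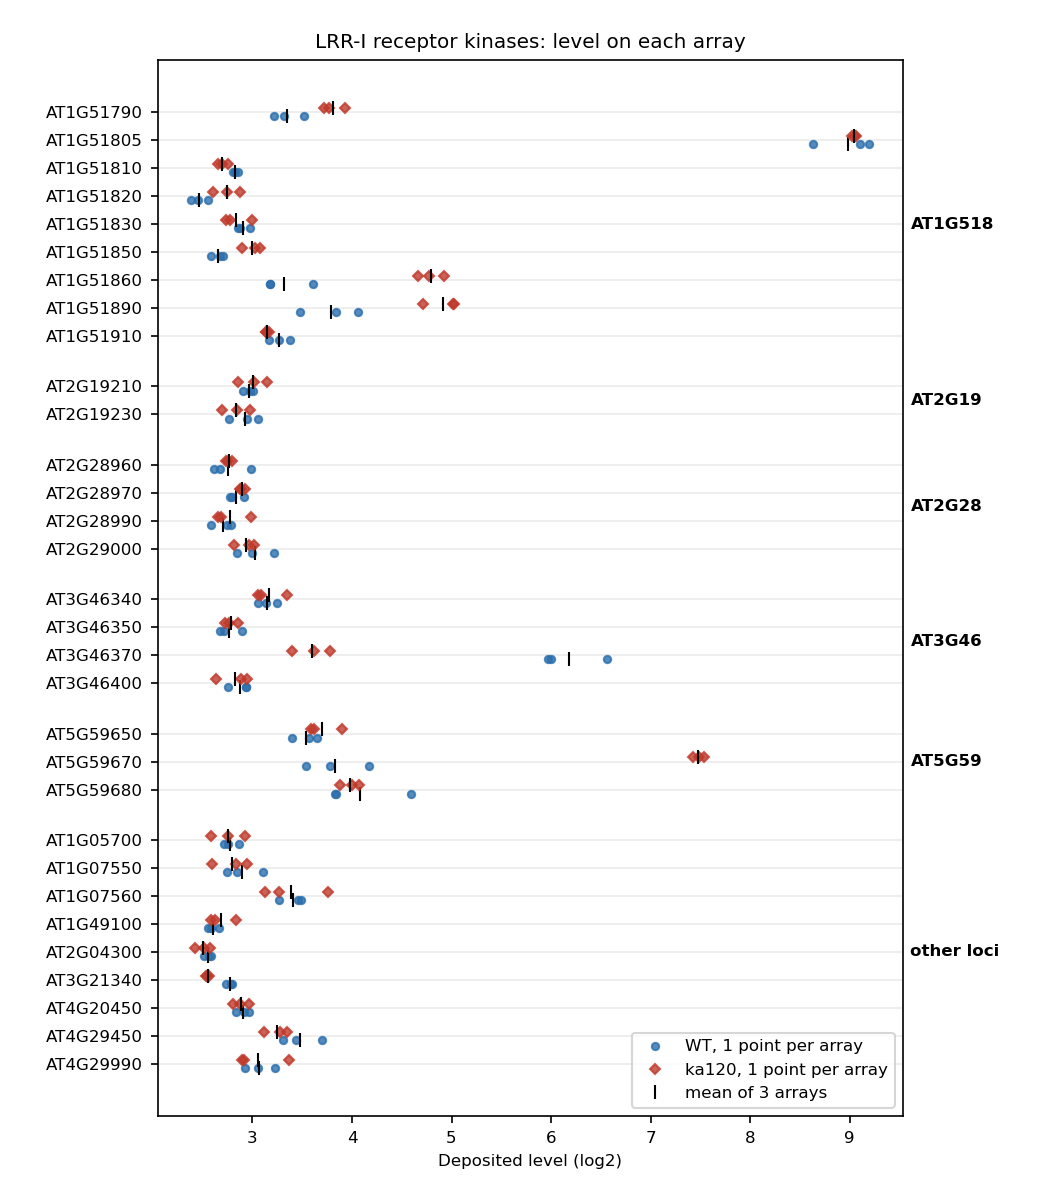
Deposited log2 level (horizontal axis) of the 31 measured LRR-I members (rows, grouped by gene cluster) on each of 3 WT arrays (blue circles) and 3 ka120 arrays (red diamonds), with black bars at the means. AT5G59670, AT1G51860 and AT1G51890 have their ka120 arrays to the right of the WT arrays, AT3G46370 to the left, and AT1G51805 stands alone near 9.

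The AT2G19 and AT2G28 clusters held no call by limma, and no member of either had an unadjusted p under 0.05. AT2G19210 gave a difference of 0.04 and AT2G19230 one of -0.08. In AT2G28, AT2G28960, AT2G28970, AT2G28990 and AT2G29000 gave 0.00, 0.06, 0.07 and -0.09. Their levels ran from 2.59 to 3.22 over all arrays, between percentiles 5.47 and 14.2 by their means, and the groups overlapped in each. Their 95% intervals together spanned -0.34 to 0.31.

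Of the 9 measured loci outside the clusters none was called by limma, and 1 had an unadjusted p under 0.05. That gene was AT3G21340, which read 2.53, 2.57 and 2.55 in ka120 and 2.80, 2.79 and 2.73 in WT. Its difference of -0.22 missed the threshold (limma adjusted p = 0.0609), and it lay at percentile 6.13 in WT. AT3G21340 passed as lower with an intensity trend and robust prior (limma adjusted p = 0.0221), with array weights (0.0494) and after median centring (0.00823). Its difference was 0.005 after centring on the hybridization controls and 0.22 with the offset by level, and neither was called. AT4G29450 gave -0.23 (95% interval -0.49 to 0.02) and passed as lower after median centring (-0.35, limma adjusted p = 0.0317). With the same 2 control-based scalings it gave -0.003 and 0.21, and neither was called. The direction of both genes thus depended on the scaling. The other 7, AT1G05700, AT1G07550, AT1G07560, AT1G49100, AT2G04300, AT4G20450 and AT4G29990, gave differences between -0.10 and 0.08. Of these, AT1G49100 passed as higher after centring on the hybridization controls (0.31, limma adjusted p = 0.0423). The probe set shared by AT2G14440 and AT2G14510 gave -0.05, at percentile 1.42.

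For all 24 uncalled members the 95% intervals lay within 0.5 of 0, from -0.50 to 0.41 at the extremes. For the dim ones these intervals bound the change of the signal, not of a transcript that may be under background.

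**Figure D3:**
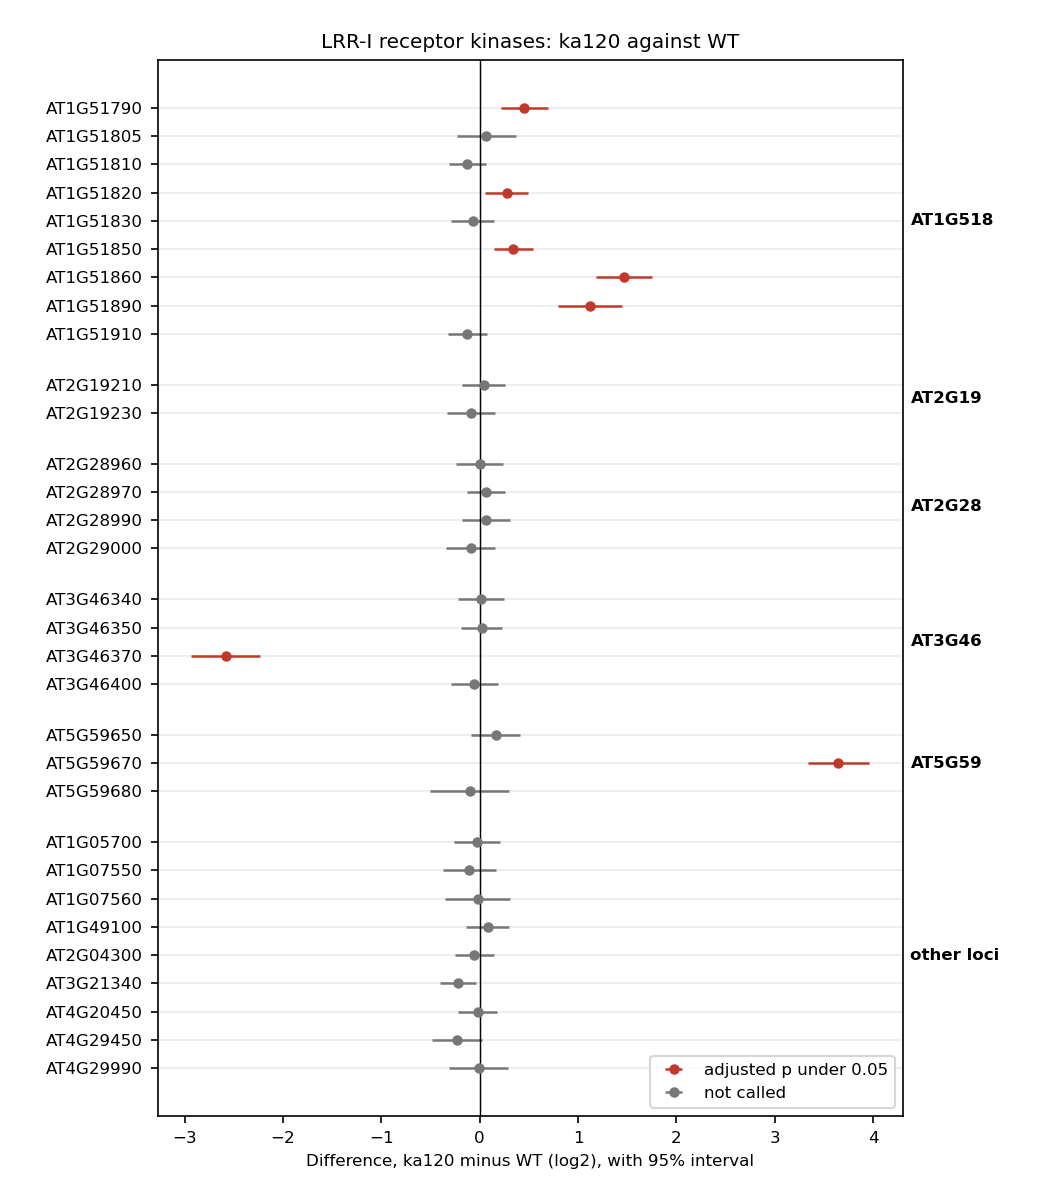
Difference, ka120 minus WT, on the log2 scale with its 95% limma interval for the 31 measured LRR-I members, grouped by cluster. The 7 called members are in red, and the 24 others in grey have intervals between -0.50 and 0.41.

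The arrays of 1 genotype differed in a way that many members shared. WT replicate 1 was the highest WT array in 22 of 31 members and ka120 replicate 2 the highest ka120 array in 20 of 31. Among all probe sets below percentile 40 these arrays were the highest in 50.8% and 50.9%, and among all probe sets in 37.9% and 36%. The per-array median over the members was 2.95, 2.98 and 2.87 in ka120 and 2.99, 2.92 and 2.95 in WT, so it did not separate the genotypes. Without WT replicate 1, 5 members rose and 1 fell, and the calls of the 4 members with differences of at least 1 were kept.

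The scaling of the arrays moved all members' differences, and the 4 largest kept their direction and call under each scaling tried. Added hybridization controls differed between the genotypes, by -0.44 for BioB, whose level was at percentile 85.2, and by 0.02 for Cre, the brightest (ka120 minus WT, log2). After quantile normalization, median centring, centring on these controls and removal of an offset by control level, AT5G59670 gave 3.52 to 4.09, AT1G51860 1.35 to 1.91, AT1G51890 0.999 to 1.56 and AT3G46370 -2.70 to -2.14. Removal of the offset by level, which adds the BioB shift to every dim probe set, called 27 members higher and moved their median to 0.42, beside a median of 0.41 over all probe sets. The direction of the dim members is thus not settled by these arrays.

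**Figure D4:**
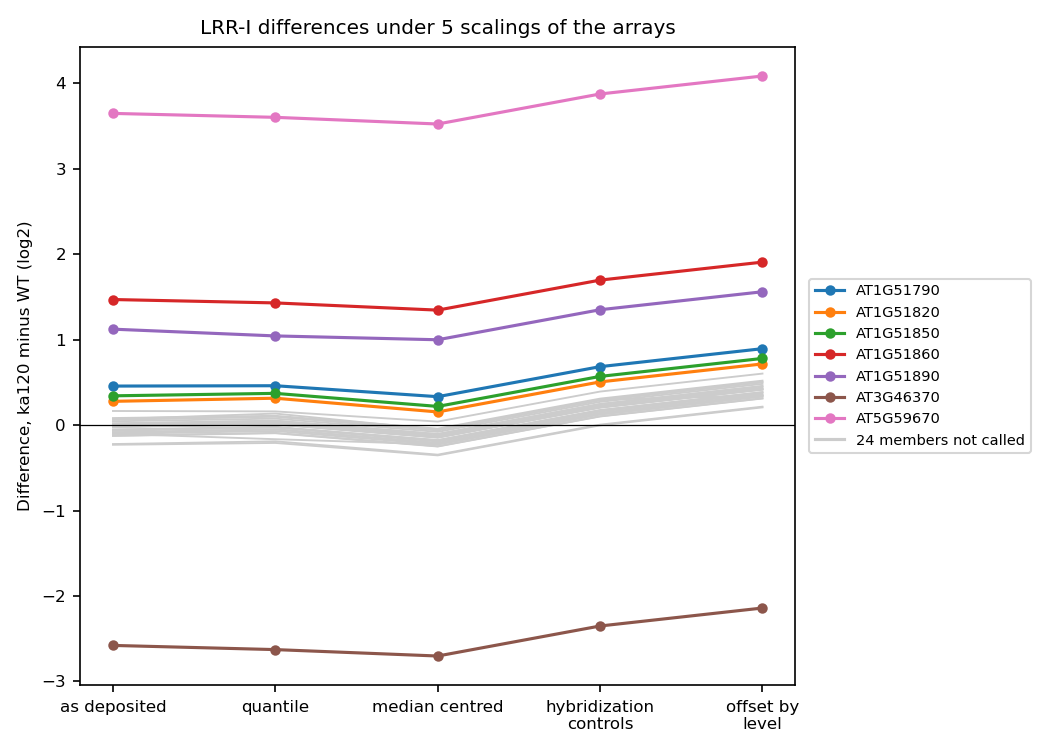
Difference, ka120 minus WT (log2, vertical axis), of each measured LRR-I member under 5 scalings of the arrays (horizontal axis). The 7 members called with the deposited values are coloured and kept their direction under all 5. The grey lines of the 24 others move with the scaling. With the offset by level 21 of these 24 were called higher, as were 15475 of all 22746 probe sets.

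The measured genes beside the called members were examined next, 3 on each side in the TAIR10.1 gene order, a rule chosen after the members' values were seen. Of 13 such neighbours outside the list, 1 rose, 1 fell and 11 were not called, beside the 32.9% of named genes that were called. The rise was that of AT1G51730, by 0.41 (limma adjusted p = 0.0157), at the edge of the AT1G518 cluster. That call was lost after median centring (0.29) and without ka120 replicate 1, ka120 replicate 3 or WT replicate 2, at limma adjusted p between 0.0512 and 0.0737. The fall was that of AT5G59700, a gene of the CrRLK1L receptor kinases, by 0.54 (limma adjusted p = 0.000793), on the far side of AT5G59680 from AT5G59670. It was not called with the offset by level (-0.10, limma adjusted p = 0.475). AT5G59660, the nearest measured gene to AT5G59670 on its other side, gave 0.20, and AT3G46360 and AT3G46380, which flank AT3G46370, gave -0.20 and 0.01. AT1G51840 and AT1G51900, within the AT1G518 cluster, gave 0.09 and 0.01. Not all neighbours are unrelated genes: AT1G51840, AT5G59660 and AT5G59700 are also counted in the lists of malectin-like genes below.

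**Figure D5:**
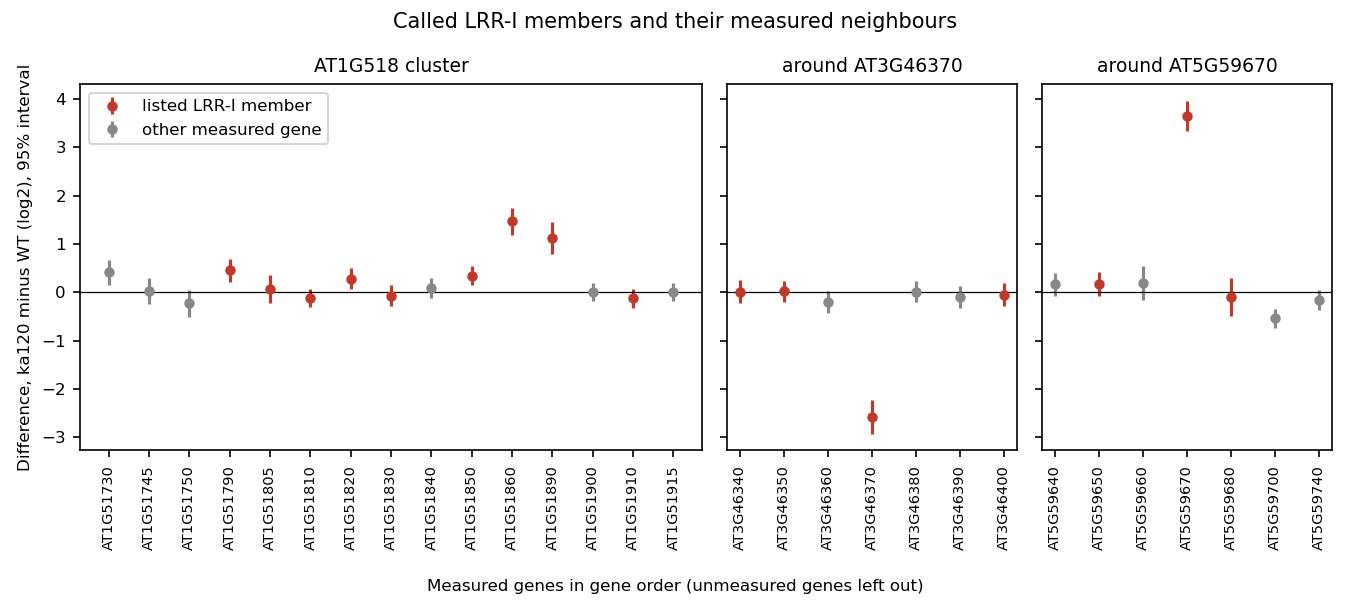
Difference, ka120 minus WT, on the log2 scale with its 95% interval, for called LRR-I members and their nearest measured genes in gene order. The listed members are red and other genes grey; AT5G59670 and AT3G46370 stand apart from their flanks, while AT1G51860 and AT1G51890 are adjacent among measured genes.

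Other genes with a malectin-like region gave a mixed picture. Among the CrRLK1L receptor kinases, which share the malectin-like region but not the leucine-rich repeats and include regulators of cell wall integrity, 12 of 17 listed loci were measured, 4 rose and 1 fell. AT5G39020 rose by 1.15, AT2G39360 by 0.65, AT2G23200 by 0.64 and FER (AT3G51550), the receptor for RALF peptides, by 0.32 on the log2 scale. THE1, a sensor of cell wall defects, gave 0.28 and did not pass. The AT2G39360 call was lost after quantile normalization and without ka120 replicate 2 or 3, and the FER call after median centring, at limma adjusted p between 0.0547 and 0.0976. The median of the 12 was 0.02 and ran from -0.10 to 0.46 over the scalings, with 3 to 9 members higher and 0 to 3 lower. Of 17 further loci related to the LRR-I genes 11 were measured: AT1G67720 rose by 0.85 and AT2G37050 by 0.36, AT3G05990 fell by 0.82, and the median was -0.01 (-0.13 to 0.43 over the scalings, with 1 to 8 higher and 1 to 3 lower). The AT2G37050 call was lost after median centring and without ka120 replicate 1 or 3, at limma adjusted p between 0.053 and 0.07. In these lists 5 of 12 and 3 of 11 measured genes were called, beside 35.9% of all probe sets.

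Of 32 listed genes of surface receptor signalling 9 were measured, and 3 rose while none fell by limma, beside 35.9% of all probe sets called. WRKY53, a transcription factor of senescence and defence, rose by 2.26, PUB24, a ubiquitin ligase, by 1.25 and BIK1, a kinase that associates with surface receptors, by 1.37. The receptor EFR, the factor WRKY22, which acts upstream of FRK1 in flagellin signalling, and the ligases PUB22 and PUB23 gave 0.14, -0.03, 0.05 and -0.01 and did not pass. Those 3 rises were called under each of the scalings, and between 3 and 9 of the 9 genes were higher depending on the scaling. The mean level of the 9 genes was 4.52 to 4.63 in ka120 and 3.91 to 4.02 in WT. The list was drawn up with earlier results of these arrays known and is not independent evidence of its direction.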

How the data were processed

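Biotin-labelled RNA of 6 samples was hybridized to a 3-prime expression array. The authors deposited a log2 value for each probe set, judged from the range of the values. Per the submitters' processing notes the affy package was used; how it corrected, normalized and summarised the probes is not stated there. Of 22810 probe sets, 64 array controls were left out. The platform annotation gave a single gene to 13513 probe sets (13436 of them found in the TAIR10.1 gene table), several genes to 503 and none to 8730. Where a gene had several probe sets the brightest by mean level was used. Genotypes were compared with limma (3.58.1, R 4.3.3; lmFit, then eBayes, with neither a block nor a filter), and p-values were adjusted by Benjamini-Hochberg at 0.05 over all 22746 probe sets. Within-array differences between members were compared by an exact permutation test over arrays.

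The members, gene lists and alternatives were chosen with earlier results of these data known. All members were to be accounted for, with values on every array for the largest rises and falls of each cluster, and called genes of the other lists were to be named. Alternatives were quantile normalization, median centring, 2 control-based scalings, leaving out the dimmest 40%, weights per array, a replicate block, a robust variance prior with an intensity trend, other probe set choices and each array left out. In simulated data for ka120 against WT over 22746 probe sets, 50 were changed at each size. The fit recovered 36% at 0.5, 88% at 1 and 100% at 2 and at 3 on the log2 scale. It called 6 of 22546 unchanged ones. In the data 35.9% of probe sets were called, a far larger share than was changed in the simulation. The Benjamini-Hochberg cutoff depends on that share, so these rates do not carry over to the fit of the data. No sequences were used here.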

Additional observations from a re-analysis of the deposited data

How the results depend on the processing

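Of the 7 called members 5 kept direction and call in every alternative in which they were fitted: AT1G51790, AT1G51860, AT1G51890, AT3G46370 and AT5G59670. AT1G51850 lost its call after median centring and AT1G51820 in 8 of 15 alternatives. Median centring, which subtracts the higher ka120 medians, gave 6235 lower calls over all probe sets, 4 lower members and a members' median of -0.13. When arrays were centred on the hybridization controls, 7971 probe sets were higher and 1955 lower. Among the members 8 were higher, AT5G59650 and AT1G49100 being added, 1 was lower, and the median was 0.22. The offset by level gave 15475 higher and 1382 lower probe sets, 27 higher members and a median of 0.42. It also turned 12 uncalled negative differences into higher calls: AT1G05700 (0.41), AT1G07550 (0.33), AT1G07560 (0.42), AT1G51810 (0.31), AT1G51830 (0.37), AT1G51910 (0.31), AT2G04300 (0.39), AT2G19230 (0.35), AT2G29000 (0.35), AT3G46400 (0.38), AT4G20450 (0.42) and AT4G29990 (0.43). These follow from the added offset. The prior degrees of freedom of limma were 6.65 as deposited, 15.77 after centring on the controls and 41.79 with the offset by level; the cause was not tested. Without the dimmest 40% of probe sets 6 members were left, 3 higher, with a median of 0.60; AT1G51860, AT1G51890, AT5G59670 and AT3G46370 passed that filter through the genotype where they were higher, so these values support nothing about the family. The intensity trend and array weights each gave 2 lower members; the cause was not tested. With each array left out in turn, the median log2 difference of the LRR-I members ran from -0.027 to 0.041, with 5 to 6 higher members and 1 lower. Same-numbered arrays deviated together at r of -0.01, -0.19 and 0.13, so the numbers were not taken as pairs; the replicate block gave 7868 calls, and AT1G51820 and the leaf marker PRK lost their calls (limma adjusted p = 0.0777 and 0.0582). With 1 probe set per member, the choices of probe set left their values as they were, and AT1G51820 lost its call when a gene's probe sets were averaged (limma adjusted p = 0.0525).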
